A study of Mus musculus with 10 samples.

Results

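The 41 genes that load and run the DNA replication machinery were followed in RNA-seq of E14, a line of mouse embryonic stem cells. They were chosen by name for their roles, from a list drawn up with earlier results of these data known, and each of the 41 symbols matched 1 Ensembl gene among the 55487 genes in the tables. By role they were 6 genes of origin recognition, 3 of licensing, 12 of the helicase, 9 of the polymerases and primase, 6 of the sliding clamp and its loader, 3 of single-stranded DNA binding and 2 of Okazaki fragment maturation. The series holds 10 samples in 6 groups, of which the 3 replicates of total RNA from E14 cells, depleted of ribosomal RNA, are used here. The other 7 samples map R-loops, structures of RNA paired with one DNA strand, by MapR and BisMapR and their controls, and were not analysed here. All groups shared the same culture, DMEM with 15% serum, LIF, 3 µM of a GSK inhibitor and 1 µM of a MEK1/2 inhibitor. With 1 group of RNA libraries there is no contrast between conditions, so levels were compared between genes within each replicate, and the spread over the 3 replicates is the error. The labels do not say whether the replicates came from separate cultures, so that spread may be technical. E14 is a single line, and a difference in the share of cells in S phase cannot be told apart in bulk RNA from a difference in RNA per cell.

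DNA is licensed for replication in G1, when the origin recognition complex and Cdc6 bind DNA and, with Cdt1, load the ring of Mcm2 to Mcm7 around it. At the start of S phase Cdc45 and the GINS complex join the ring and turn it into the moving helicase. After that, geminin keeps Cdt1 from taking part in the loading of new rings. Polymerase alpha with primase starts each strand, polymerases epsilon and delta extend it on the Pcna clamp that replication factor C loads, and Fen1 and Lig1 join the Okazaki fragments. Embryonic stem cells are known for a short G1 and a large share of cells in S phase.

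Summed estimated counts per library were 11420425 for replicate 1, 6467405 for replicate 2 and 5787357 for replicate 3, and no member had under 83 counts in any of them. All 7 markers of embryonic stem cells on the list had a mean of at least 16.6 TPM (a level scaled for gene length and for library size). Of 6 feeder fibroblast markers, Col3a1, Postn and Twist2 had 0 counts throughout and 1, Thy1, reached a mean of 1 TPM, at 2.50. The list summed to 3.15, 3.37 and 1.24 TPM in the 3 replicates. Of 7 markers of differentiated lineages none reached a mean of 1 TPM, and they summed to 2.76, 2.66 and 1.66 TPM. The part of these low levels in the results was not tested. Genes with an effective length under 100 nt took 60.3%, 65.8% and 64.0% of TPM, so TPM of every longer gene is low in absolute terms and rests on a denominator of small RNAs.

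All 41 genes were expressed, by a mean of at least 1 TPM. That level was reached by 19.8% of all genes and by 44.2% of protein-coding genes. The median of the 41 means was 15.6 TPM, beside 5.73 TPM over the 9680 protein-coding genes that reached 1 TPM, and 40 of the 41 lay above that value. In the upper 25% of those 9680 genes were 27 members. On the log2(TPM + 1) scale the median of the 41 genes exceeded that of expressed protein-coding genes by 1.23, 1.36 and 1.39 in replicates 1, 2 and 3. The level spanned 41.8-fold, from Gins3 at 2.18 TPM to Pcna at 91.0 TPM, but 38 of the 41 means lay between 8 and 60 TPM. Together the genes held 0.516%, 0.529% and 0.537% of counts.

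**Figure D1:**
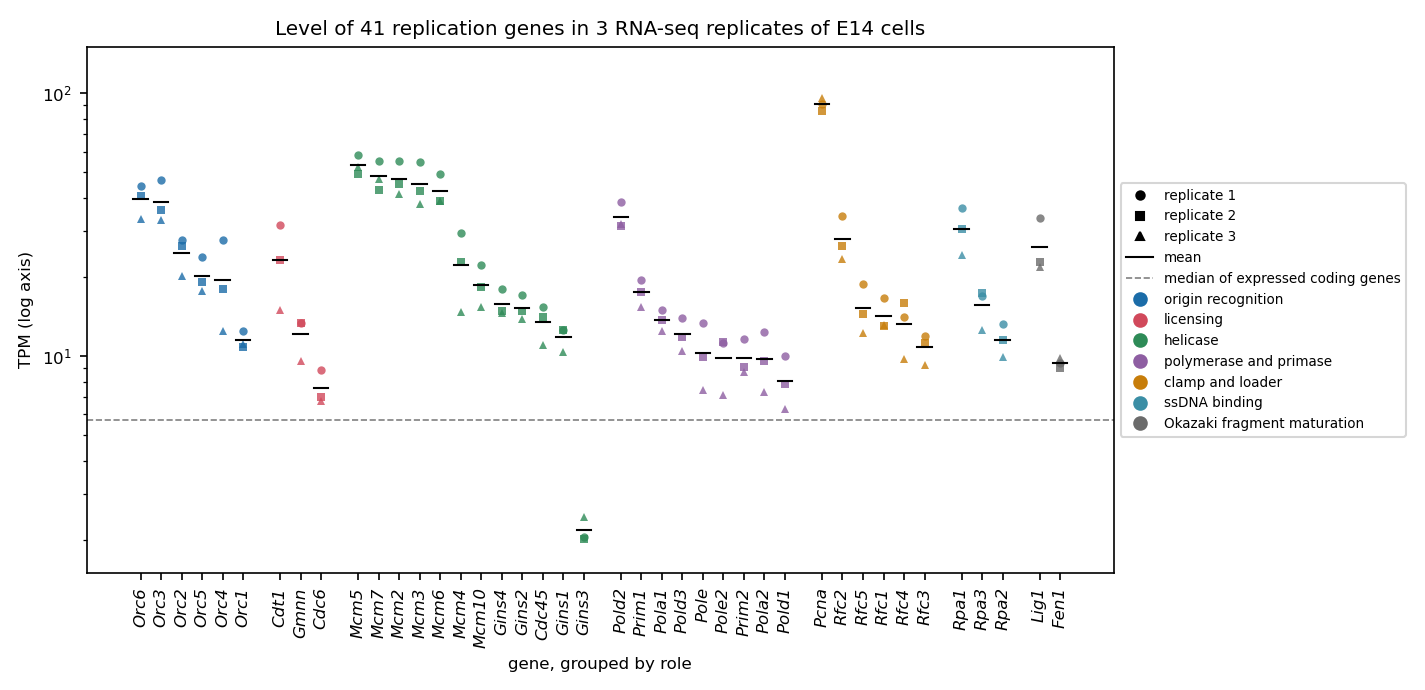
TPM of each gene on a log axis, grouped by role and ordered by mean within a role; circles, squares and triangles are replicates 1, 2 and 3, black bars the means, and the dashed line the median of expressed protein-coding genes at 5.73 TPM. Pcna stands at the top, Mcm2, Mcm3, Mcm5, Mcm6 and Mcm7 lie together near 50 TPM, and Gins3 alone lies under the dashed line.

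The origin recognition complex, which marks origins, had a median log2(TPM + 1) of 4.57 ± 0.26 (SD, n = 3). Its 6 subunits differed in level by 3.50 ± 0.44-fold (SD, n = 3) between the highest and the lowest. Orc6 had 44.6, 40.7 and 33.3 TPM in replicates 1, 2 and 3 and Orc3 had 47.0, 36.0 and 32.99 TPM. These 2 led the complex and could not be ordered, since Orc6 was the higher in 2 of 3 replicates. Orc2, at 24.7 ± 3.94 TPM (SD, n = 3), lay below Orc3 in every replicate with ranges that did not overlap. Orc5 (20.3 ± 3.21 TPM) and Orc4 (19.4 ± 7.72 TPM) could not be ordered either. Orc4 (chromosome 2, 48902824 to 48950277) had 27.7, 18.0 and 12.5 TPM, the widest relative spread of the 41 genes, and the length assigned to it rose from 1452 nt in replicate 1 to 1696 nt in replicate 3. Orc1, the largest subunit and an ATPase, was lowest, with 12.5, 10.8 and 11.1 TPM.

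The 3 licensing factors fell in one order in each replicate. Cdt1 (chromosome 8, 122568015 to 122573554), which acts with the origin complex and Cdc6 in loading the MCM ring, had 31.7, 23.1 and 15.0 TPM. Gmnn, which encodes geminin, the inhibitor of Cdt1, had 13.4, 13.4 and 9.56 TPM. Cdc6, the ATPase that works with the origin complex, had 8.89, 6.99 and 6.76 TPM. The transcript of Cdt1 was thus 1.89 ± 0.42 (SD, n = 3) times as abundant as that of its inhibitor, and Gmnn was 1.61 ± 0.27 (SD, n = 3) times as abundant as Cdc6, with no overlap of ranges in either pair. Replicate 3 was the low one for Cdt1, at 15.0 TPM.

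In the MCM2-7 ring, 5 of the 6 subunits had nearly the same level. Mcm5 (chromosome 8, 75109569 to 75128439) had 58.4, 49.2 and 52.4 TPM. Mcm7 (chromosome 5, 138164583 to 138172422) had 55.2, 43.1 and 47.3 TPM. Mcm2 (chromosome 6, 88883474 to 88898780) had 55.4, 45.0 and 41.3 TPM. The means of Mcm3 and Mcm6 were 45.1 ± 8.68 and 42.3 ± 6.02 TPM (SD, n = 3). Among these 5, the highest exceeded the lowest by 1.19-, 1.27- and 1.38-fold in replicates 1, 2 and 3. The ranges of neighbours in their order overlapped. Mcm5 was above Mcm7 and Mcm2 above Mcm3 in all 3 replicates, while Mcm7 was above Mcm2 in 1 and Mcm3 above Mcm6 in 2. Mcm4 (chromosome 16, 15623897 to 15637400) was the exception to this near-equal level, with 29.4, 22.7 and 14.7 TPM. It lay below every other subunit in each replicate, and Mcm6, the next above it, was 2.01 ± 0.55 (SD, n = 3) times as abundant. Over all 6 subunits the range was 1.99-, 2.16- and 3.56-fold, widest in replicate 3. A processed pseudogene with 91.1% identity to Mcm4 over 1861 nt, Gm9577, had 0 counts in all replicates, and Mcm4 counts were whole numbers, so no division of reads between them was seen.

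The promoter windows of the 5 ring genes given in RefSeq (GRCm38.p6; each 250 bases before the start to 50 after it) are shown because these genes, grouped after their levels were seen and without Mcm4, lay within 1.28 ± 0.10-fold (SD, n = 3) of each other. The windows are chr6:88898731-88899030 for Mcm2, chr1:20820263-20820562 for Mcm3, chr8:75109259-75109558 for Mcm5, chr1:128359656-128359955 for Mcm6 and chr5:138171834-138172133 for Mcm7. Mcm5 is on the plus strand and the other 4 are on the minus strand, and each is written 5′ to 3′ along its gene. Capitals mark matches to the letters TTCGCGC or TTGGCGC, a core of sites for the E2F factors that drive S phase genes, and to CCAAT, the core of NF-Y sites, on either strand.
Mcm2: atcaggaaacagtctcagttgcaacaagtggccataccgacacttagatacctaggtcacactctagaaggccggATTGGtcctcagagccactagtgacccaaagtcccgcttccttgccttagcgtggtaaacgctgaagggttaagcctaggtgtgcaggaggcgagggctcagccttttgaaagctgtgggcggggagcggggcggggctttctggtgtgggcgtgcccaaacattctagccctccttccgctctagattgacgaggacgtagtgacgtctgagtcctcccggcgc
Mcm3: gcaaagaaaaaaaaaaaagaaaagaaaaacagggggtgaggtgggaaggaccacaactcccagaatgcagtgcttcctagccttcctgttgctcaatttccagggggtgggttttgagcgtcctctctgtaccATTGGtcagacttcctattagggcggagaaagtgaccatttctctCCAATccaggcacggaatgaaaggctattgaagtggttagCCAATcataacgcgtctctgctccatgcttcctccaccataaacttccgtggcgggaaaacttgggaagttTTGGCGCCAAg
Mcm5: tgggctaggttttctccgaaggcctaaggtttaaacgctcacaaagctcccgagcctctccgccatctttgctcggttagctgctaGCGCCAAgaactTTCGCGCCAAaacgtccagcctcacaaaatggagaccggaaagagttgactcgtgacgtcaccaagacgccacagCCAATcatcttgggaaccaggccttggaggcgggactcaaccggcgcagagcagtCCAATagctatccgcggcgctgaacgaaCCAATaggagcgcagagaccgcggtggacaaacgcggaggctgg
Mcm6: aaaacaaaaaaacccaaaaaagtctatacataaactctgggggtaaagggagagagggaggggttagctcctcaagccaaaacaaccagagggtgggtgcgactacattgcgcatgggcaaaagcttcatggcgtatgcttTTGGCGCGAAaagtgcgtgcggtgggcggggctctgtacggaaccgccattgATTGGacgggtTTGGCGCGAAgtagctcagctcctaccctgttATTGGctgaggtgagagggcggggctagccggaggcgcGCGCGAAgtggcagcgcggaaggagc
Mcm7: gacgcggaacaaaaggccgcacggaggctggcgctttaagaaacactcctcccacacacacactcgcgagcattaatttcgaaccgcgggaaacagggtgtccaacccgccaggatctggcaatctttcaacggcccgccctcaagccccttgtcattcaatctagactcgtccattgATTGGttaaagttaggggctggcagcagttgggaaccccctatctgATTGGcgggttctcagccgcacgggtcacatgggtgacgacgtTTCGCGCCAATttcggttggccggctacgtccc
Mcm6 held 5 matches to the E2F-type letters, Mcm5 held 3, and Mcm3 and Mcm7 held 2 each. In Mcm3, Mcm5, Mcm6 and Mcm7 some of these matches overlap on opposite strands and appear as 1 run of capitals. Mcm2, at a level within the range of the other 4, had none in this window, which says only that these letters are not in it.

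The other helicase genes were lower than the 5 even ring genes. Mcm10, which helps start the helicase, had 18.7 ± 3.45 TPM (SD, n = 3), and Cdc45, the helicase subunit that acts with MCM and GINS, had 13.5 ± 2.25 TPM (SD, n = 3). Gins4, Gins2 and Gins1, grouped without Gins3 after the levels were seen, had means of 15.9, 15.2 and 11.8 TPM. They lay within 1.34 ± 0.14-fold (SD, n = 3) of each other. The level of Gins2 depends on its assigned length, a mean of 914 nt, while its only annotated coding transcript has 3900 nt. Gins3 (chromosome 8, 95633453 to 95645060), the remaining subunit of the same 4-part complex, had 2.06, 2.02 and 2.45 TPM. It was the lowest of the 41 genes in every replicate, and Gins1, the next subunit above it, was 5.52 ± 1.13 (SD, n = 3) times as abundant. Its 125, 91 and 83 counts also were the fewest of any member, and its assigned length of 1915 nt in replicate 3 was shorter than the 2519 nt of replicate 2.

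The polymerase and primase genes had the lowest median of the roles, 3.58 ± 0.28 (SD, n = 3) on the log2(TPM + 1) scale. The licensing genes were close, at 3.70 ± 0.26 (SD, n = 3), a gap within the SD. The helicase genes had 4.39 ± 0.37 (SD, n = 3). In the polymerase alpha complex the order was Prim1, the catalytic primase subunit, at 17.5 ± 2.07 TPM, then Pola1, the polymerase subunit, at 13.7 ± 1.31 TPM (SD, n = 3), with ranges that did not overlap. Prim2 and Pola2 followed at 9.81 and 9.75 TPM and could not be ordered. In polymerase delta the accessory subunit Pold2 had 38.6, 31.4 and 31.8 TPM, while the catalytic subunit Pold1 had 9.98, 7.83 and 6.31 TPM. Pold2 was 4.30 ± 0.64 (SD, n = 3) times as abundant as Pold1, and Pold3 lay between them at 12.1 ± 1.77 TPM (SD, n = 3). Catalytic Pole and its partner Pole2 had 10.3 ± 2.96 and 9.88 ± 2.42 TPM (SD, n = 3) and differed by less than their spread. Pole2 had fractional counts and shares 245 nt of exon on the same strand with Gm49384, which had 91.4, 40.3 and 42.3 counts, and their sums were not whole either, so its level is uncertain.

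Pcna (chromosome 2, 132249162 to 132253314), the sliding clamp, was the most abundant member in each replicate, at 90.9, 85.9 and 96.2 TPM. It was 1.71 ± 0.14 (SD, n = 3) times as abundant as Mcm5, the next gene, and ranked 251 among the expressed protein-coding genes. Its value depends on how reads were divided with a copy. Pcna-ps2 (chromosome 19, 9283380 to 9284160) is annotated as a processed pseudogene of 781 nt, and it differed from the 783 nt coding sequence of Pcna at 8 aligned positions, 2 of them gaps. The longest stretch without a difference was 246 nt. The stretch of 150 coding bases of Pcna with the most differences, from base 550 to base 699 of the coding sequence, is shown beside the copy from the GENCODE vM21 transcripts, with the differing bases in capitals, since only such bases can assign a read from the coding part.
Pcna: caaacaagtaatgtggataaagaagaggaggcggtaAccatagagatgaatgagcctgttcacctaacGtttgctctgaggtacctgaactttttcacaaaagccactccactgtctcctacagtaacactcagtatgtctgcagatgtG
Pcna-ps2: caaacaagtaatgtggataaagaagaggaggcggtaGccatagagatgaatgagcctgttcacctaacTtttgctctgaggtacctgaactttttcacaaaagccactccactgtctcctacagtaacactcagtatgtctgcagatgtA
These 150 bases hold 3 of the differences. The estimated counts of Pcna were 3326.38, 2208.36 and 2497.96, and those of Pcna-ps2 were 821.62, 577.64 and 475.04. Neither gene had whole counts, but their sums were 4148, 2786 and 2973, whole to within 0.011 counts, so the fractions came from reads divided between this pair. Pcna-ps2 was given 19.8%, 20.7% and 15.98% of the summed counts, and in TPM it stood at 47.1, 48.0 and 38.6. Whether the copy is transcribed cannot be told from these counts, and if all the reads given to it came from Pcna, the sums above would be the counts of Pcna.

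**Figure D2:**
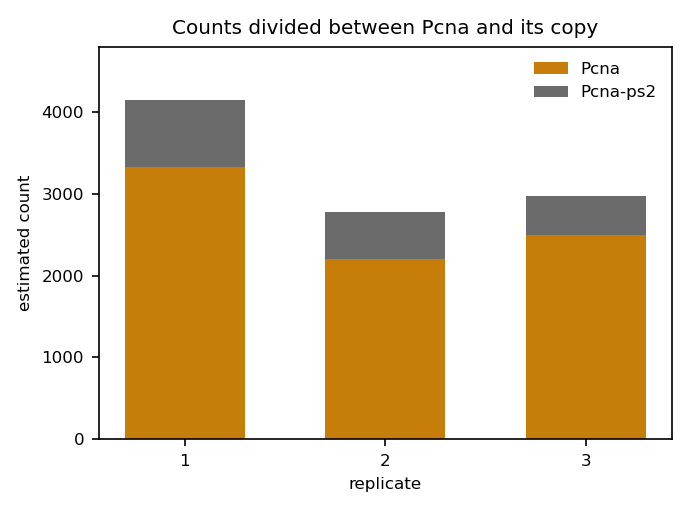
Estimated counts (vertical axis, from 0) of Pcna and, stacked above them, of its processed pseudogene Pcna-ps2 in each replicate. The copy takes 15.98% to 20.7% of each stack, and the stacks reach 4148, 2786 and 2973 counts.

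The same division was seen on a small scale for Mcm7 and Cdc6. Mcm7 and the pseudogene Gm5487, 97.7% identical over 2157 nt, summed to 3338, 1966 and 1988 counts, of which the pseudogene had at most 5.15. Cdc6 and Gm9430 summed to 352 counts in replicate 2, of which Gm9430 had 2.16. The similar genes Gm6510 (to Gmnn), Gm12870 (to Rfc5) and Gm6195 (to Rpa3) had 0 counts. In all, 37 of the 41 members had whole counts in every replicate, and the 4 others were Pcna, Mcm7, Cdc6 and Pole2. How many of all genes had whole counts was not computed, so this share cannot be called particular to the members.

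The loader of the clamp was less abundant than the clamp. Rfc2 had 34.0, 26.3 and 23.4 TPM and led the 5 subunits of replication factor C, above Rfc5 by 1.84 ± 0.05-fold (SD, n = 3) with ranges that did not overlap. This lead depends on the length assigned to Rfc2, a mean of 1179 nt. Its only annotated coding transcript has 4995 nt, so its TPM rests largely on shorter transcripts not annotated as coding. Rfc5, the large subunit Rfc1, Rfc4 and Rfc3 followed at 15.2, 14.3, 13.3 and 10.8 TPM, and the ranges of neighbours in that order overlapped. Rfc4 was above Rfc3 in all 3 replicates, while Rfc5 was above Rfc1 in 2 and Rfc1 above Rfc4 in 2. Pcna was 6.47 ± 0.95 (SD, n = 3) times as abundant as Rfc1. Rfc4 had 14.04, 15.9 and 9.79 TPM, and its assigned length was 936, 878 and 1219 nt, so the low TPM of replicate 3 went with the longest assigned length. It also shares 194 nt of exon on the opposite strand with Eif4a2, which had 9106.89, 5858.07 and 4201.99 counts. The library kit is directional per the labels, and the strand setting of the counting is not given in the sources used here. The counts of Rfc4 were whole in every replicate, so no division of reads with Eif4a2 was seen, though the counts of Eif4a2 were fractional. Orc2, which shares 29.8% of its exon bases with Nif3l1, and Orc6, which shares 6.93% with Vps35, also had whole counts in every replicate, as did both of those neighbours.

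Of the subunits of replication protein A, which coats single-stranded DNA, the large subunit Rpa1 had 36.7, 30.5 and 24.3 TPM. Rpa3 and Rpa2 had 15.6 ± 2.66 and 11.6 ± 1.68 TPM (SD, n = 3), and Rpa1 exceeded Rpa3 by 1.95 ± 0.20-fold (SD, n = 3). In Okazaki fragment maturation the ligase Lig1 had 33.6, 22.8 and 21.9 TPM. The flap nuclease Fen1 (chromosome 19, 10199132 to 10204169) had 9.38, 8.99 and 9.87 TPM. Lig1 was therefore 2.78 ± 0.71 (SD, n = 3) times as abundant as Fen1, and every replicate showed this order. These ratios, like those above, are given without a test; with 3 pairs an exact two-sided permutation test cannot go below a p of 0.25.

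Further genes of the pathway, listed with earlier results of these data known, were measured beside the members. Of 39, 38 matched 1 gene each (Chtf8 names 2 records and was left out), and 37 of the 38 reached a mean of 1 TPM. Their median was 7.57 TPM. All 7 genes of origin firing were expressed, from the helicase gene Recql4 at 1.90 ± 0.41 TPM to Topbp1, the scaffold that brings GINS to origins, at 24.1 ± 6.17 TPM (SD, n = 3). Dbf4, the activator of the kinase Cdc7, had 17.6 ± 3.52 TPM and Cdc7 had 7.89 ± 1.92 TPM (SD, n = 3). All 4 fork protection genes were expressed, and Tipin, with 46.1, 38.5 and 38.4 TPM, lay above its partner Timeless, with 12.0, 9.78 and 8.42 TPM, in each replicate. The small epsilon subunit Pole4, at 47.2 ± 7.34 TPM (SD, n = 3), was the highest of the 38. Of the nucleotide supply genes, Tyms, the thymidylate synthase, had 44.6 ± 4.14 TPM, and Rrm1, the large subunit of ribonucleotide reductase, had 27.1 ± 3.47 TPM (SD, n = 3). Of 10 E2F family and partner genes 9 reached 1 TPM. Tfdp1, the dimer partner, was highest at 40.1 ± 6.54 TPM, E2f4 had 18.0 ± 4.69 TPM, E2f1 had 6.28 ± 1.67 TPM and E2f2 had 0.663 ± 0.232 TPM (SD, n = 3).

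The E2F-type and CCAAT letters were counted in the RefSeq windows of 300 bases, which 33 of the 41 genes had; Gins1, Gins2, Gins4, Gmnn, Mcm4, Pole, Prim2 and Rfc2 had none. Where a gene had more than 1 window the first listed was used. A RefSeq start can differ from the GENCODE start, as it does for Cdc6, Orc4, Lig1, Gins3, Mcm5, Mcm7 and Fen1, among others. A window without a match therefore does not show that the region before the GENCODE start lacks one. TTCGCGC or TTGGCGC stood on either strand in 11 of 33 windows, 33.3%, beside 8.01% of 7706 windows of expressed protein-coding genes and 3.98% of all 27025 windows. The 11 were Mcm3, Mcm5, Mcm6, Mcm7, Orc1, Cdt1, Pola1, Pole2, Rfc1, Rfc3 and Rpa3. Of 21 matches in them 12 overlapped another one on the opposite strand, and 15 lay within 100 bases before to 50 after the start. CCAAT stood in 20 of 33 windows, 60.6%, beside 40.7% of expressed protein-coding windows, and in all 8 windows of helicase genes. Of its 39 matches 2 overlapped an E2F-type match. The GC content of the members' windows had a median of 61.3%, beside 61.3% in expressed protein-coding windows. Members with an E2F-type match had a median level of 15.6 TPM and those without one 18.1 TPM. A match describes the letters and does not show a site in use.

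**Figure D3:**
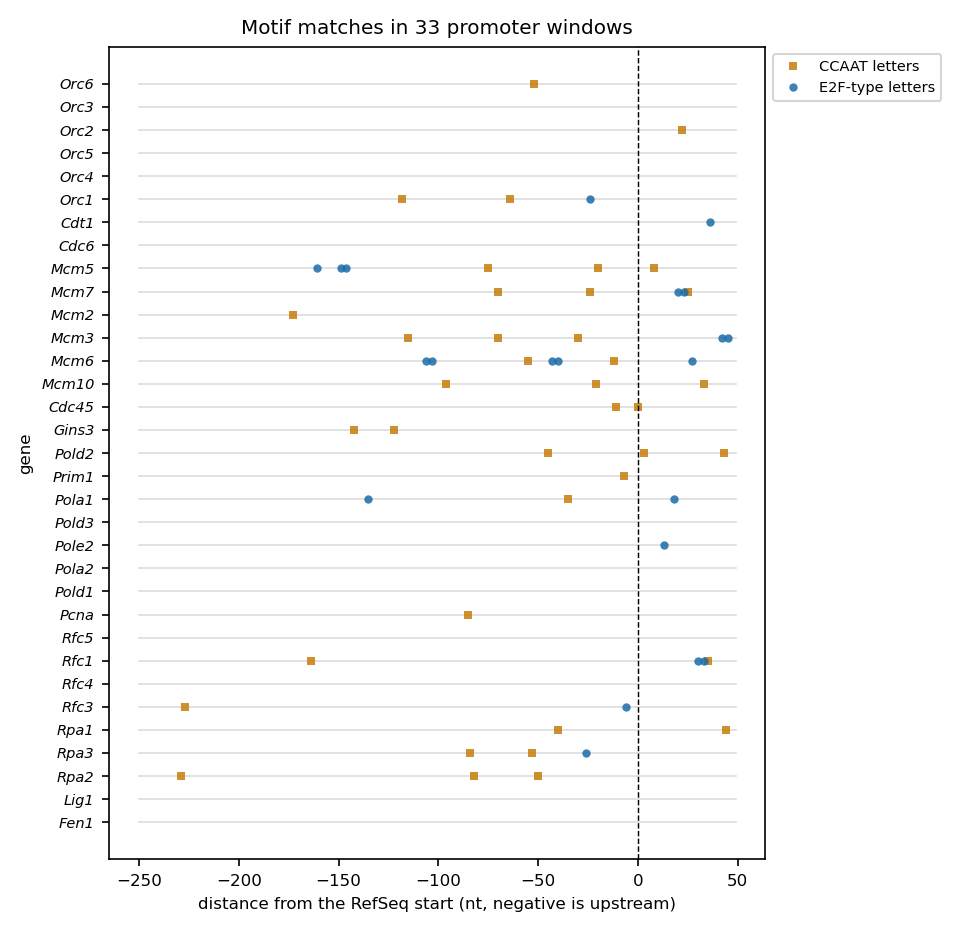
Positions of E2F-type letters (blue circles) and CCAAT letters (orange squares) in the 33 promoter windows, 1 gene a line, by distance from the RefSeq start in nt. The E2F-type matches fall in 11 genes, 15 of 21 of them from 100 nt before the start to 50 nt after it.

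Many of the genes share a start region with a gene on the other strand. An opposite-strand start within 1000 nt was annotated for 20 of the 41 members, beside 28.8% of expressed protein-coding genes. In 12 members the partner was protein-coding. Mcm4 starts 466 nt from Prkdc, the DNA-dependent protein kinase of end joining, and was higher than it in each replicate, at 22.3 against 4.06 TPM. Orc1 starts 87 nt from the splicing gene Prpf38a and was the lower of the pair in each replicate, at 11.5 against 13.3 TPM. Orc3 starts 13 nt from Rars2, a mitochondrial arginyl-tRNA synthetase, at 38.6 against 8.33 TPM. Fen1 overlaps the start of Tmem258 and was lower in each replicate, at 9.41 against 71.4 TPM. Pole starts 120 nt from Pxmp2 and was the higher in each replicate, at 10.3 against 3.78 TPM. Of the 13 pairs with a protein-coding partner the member was the higher in every replicate in 9 and the lower in every replicate in 3. The like counts over all expressed genes were not made. As 40 of the 41 members lay above the median of expressed protein-coding genes, this split is not read as a trait of the pairs. The 8 noncoding partners stayed at or under a mean of 0.33 TPM.

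The files also give the length assigned to each gene, the mean of its transcripts weighted by their estimated shares, which differs between replicates where those shares differ. Over the members it changed by at least 1.1-fold between replicates in 11 of 41, beside 47.7% of expressed protein-coding genes. The 11, named after their values were seen, were Rfc4, Gins3, Cdt1, Pold2, Mcm10, Orc4, Lig1, Gins2, Pold3, Gmnn and Rfc2. Rfc4 had the widest change, 1.39-fold. For Mcm10, the length was 2599, 2677 and 3037 nt, and for Lig1 it was 2609, 2940 and 2732 nt. Mcm4 had 3548, 3589 and 3589 nt, so its low TPM in replicate 3 did not go with a change of length.

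Between replicates no single member passed the test for variation, while most members deviated the same way. Of the 41 genes 0 varied beyond genes of like abundance (edgeR goodness-of-fit test on a fit of all 12577 genes tested, Benjamini-Hochberg adjusted p under 0.05), where 1.84% of all genes did. At an unadjusted p under 0.05 there were also 0 members, beside 875 of the 12577 genes. On simulated data the test called 3 of 50 genes changed 2-fold in a single replicate, and 41 of 50 changed 4-fold. The simulation gave all genes the common dispersion and all libraries the same composition. The changed genes had at least 50 expected counts in the smallest library and were not matched to the members in level. Changes under 2-fold, such as those seen between replicates in the members, were not simulated. The count of 0 therefore does not show that their levels were stable. The smallest adjusted p, 0.851 by edgeR, was that of Fen1, which had 43.7, 52.0 and 72.1 CPM after TMM scaling (counts scaled for library size but not for length). Pcna had 278.7, 332.7 and 470.5 CPM on that scale, with an edgeR adjusted p of 0.971. In these 2 genes replicate 3 was above replicate 1 by 1.65- and 1.69-fold. On the same scale 32 of the 41 genes were highest in replicate 3, beside 40.6% of all genes, and 7 were lowest there, beside 40.4%. Over 942 genes of like length and abundance these shares were 48.2% and 37.2%. In TPM the direction was the opposite, with 34 of 41 highest in replicate 1, beside 86.5% of expressed protein-coding genes, and 32 lowest in replicate 3, beside 79.4%. The median log2(TPM + 1) of expressed protein-coding genes itself fell from 3.02 in replicate 1 to 2.72 and 2.43 in replicates 2 and 3.

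On the TMM scale the median deviation of the members from their own means was -0.10, -0.03 and 0.13 (log2) in replicates 1, 2 and 3. Over all genes tested it was 0.00, 0.01 and 0.00, and over 4632 genes of like length, from 1479 to 2771 nt, it was 0.00 in each. Over 942 genes of like length and abundance it was -0.02, 0.00 and 0.03. Genes of one role did not all deviate the same way: among the helicase genes Mcm4 deviated by -0.21 in replicate 3, while Mcm5 and Mcm7 deviated by 0.29 and 0.25. Among the licensing genes Cdt1 deviated by -0.26 and Cdc6 by 0.15. These genes were picked after their values were seen. Depth was lowest in replicate 3, and its part in these deviations was not tested.

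**Figure D4:**
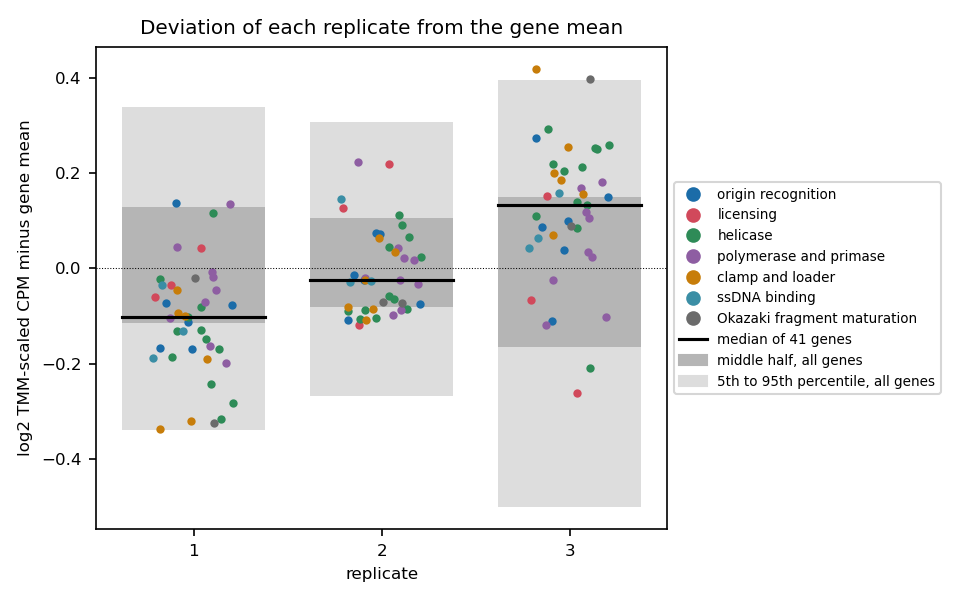
Log2 TMM-scaled CPM of each of the 41 genes minus the gene's mean (vertical axis) in each replicate, coloured by role; black lines are medians of the 41 genes and grey bands the middle 50% and the range from the 5th to the 95th percentile of all genes tested. The black line is at -0.10 in replicate 1 and at 0.13 in replicate 3.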

How the data were processed

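RNA was measured in 3 libraries of E14 cells, grouped by title. The authors deposited estimated counts (expected counts) without normalization, with fractions where a read matches several genes. They also deposited TPM, scaled by effective length and by library, and FPKM, which was not used; units are per the file headers, whose columns are those of RSEM gene-level output. STAR, RSEM and mm10 are named in the submitters' processing notes, with no version or role; annotation release and strand setting are not given in the sources used here. Names and coordinates came from GENCODE vM21 (GRCm38), which matched 55141 of 55487 IDs.

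Counts were rounded for edgeR 4.0.16 (R 4.3.3): filterByExpr, TMM, intercept-only fit, goodness-of-fit under the trended dispersion, Benjamini-Hochberg over 12577 genes, tested on simulated data. Levels are TPM, with a pseudocount of 1 on the log2 scale. Similar genes were sought with BLAST 2.17.0 (at least 90% identity over 200 nt, same strand). Promoter sequences are RefSeq (GRCm38.p6). A floor of 3 counts is 0.263, 0.464 and 0.518 CPM in replicates 1, 2 and 3, covering counting error only. The replicates differed by more than counting noise (chi-square per degree of freedom 6.08, 26.1 and 18.3 for pairs 1 and 2, 1 and 3, 2 and 3), so none was a copy of another.

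The rule for named genes allows the members, the pathway list, the marker lists, pseudogenes named after a member and opposite-strand neighbours within 1000 nt; other genes were named after their values were seen, as were ratios between genes of different complexes and the motifs. The members and lists were chosen with earlier results of these data known. Alternatives changed the unit, pseudocount, denominator, filter, length, normalization (DESeq2 1.42.0 size factors), dispersion and replicates. The values of 1 gene of the pathway list are not reported here.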

Additional observations from a re-analysis of the deposited data

How the results depend on the processing

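The 5 main results were recomputed under 30 alternatives, of which 3 moved the value and 0 reversed it. Leaving out 1 of 3 replicates cannot move a mean beyond its own SD, so for the median and the range those alternatives give values only. Nor could it take a member under a mean of 1 TPM, as the lowest TPM of any member in any replicate was 2.02. The tally is thus not a measure of robustness. The median of the 41 genes, 4.05 in log2(TPM + 1), became 6.39 as log2(CPM + 1), which drops the scaling by length, and 5.45 with genes of effective length under 100 nt left out of the TPM denominator, which raises every other gene. It ran from 3.95 to 4.17 without 1 replicate each. The MCM2-7 range of 2.57-fold ran from 2.07-fold, without replicate 3, to 2.86-fold, without replicate 1, and became 1.28-fold with the lowest subunit, Mcm4, set aside. All 41 genes stayed at a mean of 1 TPM without any 1 replicate, and 40 reached 5 TPM. The count of members varying between replicates was 0 under all 7 alternatives, DESeq2 size factors included; at an unadjusted p under 0.05 the length correction gave 1 member, beside 804 of 12577 genes, and the fits without replicate 1, 2 or 3 gave 0, beside 687 of 12558, 754 of 13302 and 510 of 13608 genes. The deviation of the members in replicate 3, 0.13, was 0.12 after the length correction, and 0.08 and 0.11 without replicate 1 and 2, alternatives chosen after seeing the data. Fixing each gene's length was also chosen after seeing the data. At the length changes seen here it cannot move a mean beyond 1 SD, so it gives values only. In genes picked after their values were seen, the SD of Rfc4 fell from 3.14 to 0.574 TPM. That of Pold2 rose from 4.02 to 6.77 TPM. No paired analysis was possible because 1 group alone has RNA libraries. Depth limits Gins3 most, at 83 counts in replicate 3.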

Other observations

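The length assigned to a gene, the mean of its transcripts weighted by their estimated shares, was for some genes far from the longest annotated coding transcript. Rfc2 had a mean of 1179 nt beside an annotated 4995 nt, and Gins2 had 914 nt beside 3900 nt. In both genes that transcript is the only one annotated as coding, so their TPM rests largely on shorter transcripts not annotated as coding. In Mcm4, Mcm2, Pcna and Pola1 it was at least 98.3% of the longest one. Gins2 also shares 2758 nt of its annotated exons with Gse1 on the opposite strand, which had 630, 318 and 127 counts. The counts of Gins2 and Gse1 were whole in every replicate, so no division of reads between them was seen.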
